A study of Mus musculus with 11 samples.

Results

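The let-7 star arms are the microRNAs cut from the side of the let-7 hairpins that lies opposite the well-known let-7 guide arms. They were taken by name, as every probe whose name starts with let-7 and ends in a star. This gave 7 of the 655 probes on the chip, mmu-let-7i*, mmu-let-7f*, mmu-let-7d*, mmu-let-7c-2*,mmu-let-7a*, mmu-let-7b*, mmu-let-7c-1* and mmu-let-7g*. One of these is a single probe for a mature sequence that the let-7a-1 and let-7c-2 hairpins both give. Livers of 6 LivPGC-1β mice, which carry a transgene that overexpresses the coactivator PGC-1β in the liver, were compared with livers of 5 wild type (WT) mice, to ask which hepatic microRNAs change with PGC-1β. All 11 mice were FVB/N, 4 months old and fasted overnight, and each gave total RNA for 1 array of a single Illumina bead chip. The LivPGC-1β line had been made earlier by the same laboratory. Its promoter and the number of founders, the sex of the mice and any pairing between groups are not given in the sources used here. LivPGC-1β mice filled chip positions 6 to 11 and WT mice positions 1 to 5, so that position and genotype cannot be told apart.

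A microRNA hairpin is cut by Drosha in the nucleus and by Dicer in the cytoplasm into a short duplex. One strand of the duplex, the guide, is usually kept by an Argonaute protein and pairs with messenger RNAs through its seed, the bases near its 5′ end, while the other strand, the passenger or star arm, is mostly degraded. The let-7 family is widely conserved, is abundant in differentiated tissues such as the adult liver and is known as a repressor of growth and of insulin signalling genes. Precursors of let-7 are held back from processing by the RNA-binding protein Lin28. Since both arms of a hairpin start from 1 transcript, a star arm and its guide arm share transcription and processing but not the steps that follow the choice of strand.

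The star arms are shown because, unlike the guides, they do not share a seed. Sequences are those of RefSeq on GRCm38.p6, which held all 7 members, and capitals mark the seed, bases 2 to 8.
let-7i*: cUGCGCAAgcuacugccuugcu
let-7f*: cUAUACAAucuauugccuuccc
let-7d*: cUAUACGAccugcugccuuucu
let-7c-2*,let-7a*: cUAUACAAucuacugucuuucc
let-7b*: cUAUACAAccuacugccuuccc
let-7c-1*: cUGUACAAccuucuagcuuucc
let-7g*: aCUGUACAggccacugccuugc

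Among the 7 star sequences there were 5 seeds. The seed UAUACAA was shared by let-7f*, let-7c-2*,let-7a* and let-7b*, and each of the other seeds belonged to a single member. The 9 guide arms measured, let-7a to let-7g, let-7i and miR-98, have 1 seed in common, GAGGUAG. In the let-7i hairpin, 85 bases on the minus strand at chr10:122985640-122985724 (GRCm38.p6), the guide takes bases 6 to 27 and the star arm bases 62 to 83, here in capitals.
let-7i hairpin: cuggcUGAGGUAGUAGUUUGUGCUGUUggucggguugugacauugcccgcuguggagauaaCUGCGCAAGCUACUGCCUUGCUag

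Read base by base without gaps, let-7f* and let-7b* differed at 2 of 22 bases, and each differed from let-7c-2*,let-7a* at 3. The let-7i* sequence differed at 6 to 8 bases from the other members that begin with a C, and at 18 from let-7g*. That count of 18 reflects the alignment, since let-7g* begins with an additional A. Shifted by that base, let-7g* and let-7i* match over most of their length, with an unbroken matching run near their ends. The deposited files hold no probe sequences, so signal shared between alike members, let-7i* and let-7g* included, or between guide arms was not tested. The file places the let-7f* probe on chromosome 13, so it was taken as the star arm of let-7f-1.

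The hairpins lie at 5 places in the genome (GRCm38.p6). Those of let-7a-1, let-7f-1 and let-7d form a cluster on the minus strand at chr13:48536012-48538272, with 261 bases between the first pair and 1714 bases between let-7f-1 and let-7d. Those of let-7c-2 and let-7b lie 621 bases apart at chr15:85706603-85707403, within the long non-coding RNA gene Lncppara. The protein-coding gene nearest to both was Ppara, which encodes the fatty acid receptor PPARα, at 28213 and 27507 bases. The let-7g hairpin lies within Wdr82, at chr9:106178840-106178927. The let-7c-1 hairpin, at chr16:77599657-77599750, and the let-7i hairpin overlap no other annotated gene, and the nearest protein-coding gene to let-7i was Mon2, 6336 bases away. Star arms of let-7a-2, let-7e and let-7f-2 were not analysed here.

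Values below are bead intensities on the log2 scale after quantile normalization over all 655 probes, without subtraction of background, and each difference is the LivPGC-1β mean minus the WT mean. The mean intensity of an array ranged from 3290 to 4185 in LivPGC-1β mice and from 3861 to 4218 in WT mice, with LivPGC-1β mouse 2 lowest. Probes called detected, by a detection p no higher than 0.01, numbered 444 to 508 in LivPGC-1β mice and 467 to 494 in WT mice, again with LivPGC-1β mouse 2 lowest. A total of 493 probes detected on at least 5 arrays, 6 of them star arms of let-7, were tested with limma, with Benjamini-Hochberg adjustment over all 493. Pairs of arrays correlated at r = 0.94 to 0.995 over these probes and no 2 arrays were identical. The hepatocyte microRNAs miR-122, miR-192, miR-194, miR-101a and miR-148a were bright on every array, their deposited intensities summing to 93756 to 112529 in LivPGC-1β mice and 105230 to 110571 in WT mice. None of the members tested passed the adjusted test, in this list or in those for leukocytes (5 of 5 tested), erythroid cells (3 of 3), endothelium (2 of 2), stellate cells (4 of 4), bile duct (4 of 4), muscle (3 of 4) and pancreas (1 of 3). WT mouse 1 stood apart in the muscle list, with intensities summing to 43074 against at most 5348 in any other mouse, and LivPGC-1β mouse 1 in the bile duct list, with 36200 against at most 24688. In whole liver RNA, fewer cells of a type and less RNA per cell cannot be told apart.

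Of the 6 star arms tested, let-7i* passed an adjusted p of 0.05 as higher in LivPGC-1β mice and none passed as lower. Over all 493 probes the same threshold was passed by 8 higher probes, 1.62%, and by 2 lower probes, 0.406%. Unadjusted, at a p under 0.05 from limma, let-7i* was again the member higher and none was lower, beside 10.1% and 2.43% of all probes. It was also the member whose LivPGC-1β arrays all stood above all WT arrays, as for 3.45% of the probes tested, and none stood below, as for 1.22%. The median difference of the 6 was −0.04 (2 positive, 4 negative), against 0.01 over all probes tested.

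The star arm let-7i* was higher by 0.51 on the log2 scale, a fold of 1.42, in livers that overexpress PGC-1β. It stood at 9.999, 9.760, 10.063, 9.995, 10.078 and 9.839 in LivPGC-1β mice 1 to 6, and at 9.502, 9.514, 9.133, 9.664 and 9.427 in WT mice 1 to 5. The groups did not overlap, but the gap between LivPGC-1β mouse 2, the lowest of its group, and WT mouse 4, the highest of its group, was 0.10 and so narrower than the spread within either group. Means were 9.96 ± 0.13 (SD, n = 6) in LivPGC-1β mice and 9.45 ± 0.20 (SD, n = 5) in WT mice. The difference had a standard error of 0.094 and a 95% interval of 0.30 to 0.72 (limma, adjusted p = 0.0191). The two-sided exact permutation p was 0.00216, the smallest that 6 against 5 arrays can give. This microRNA is one that the study drew in its heatmap of these arrays, so its call is not independent of that choice.

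**Figure D1:**
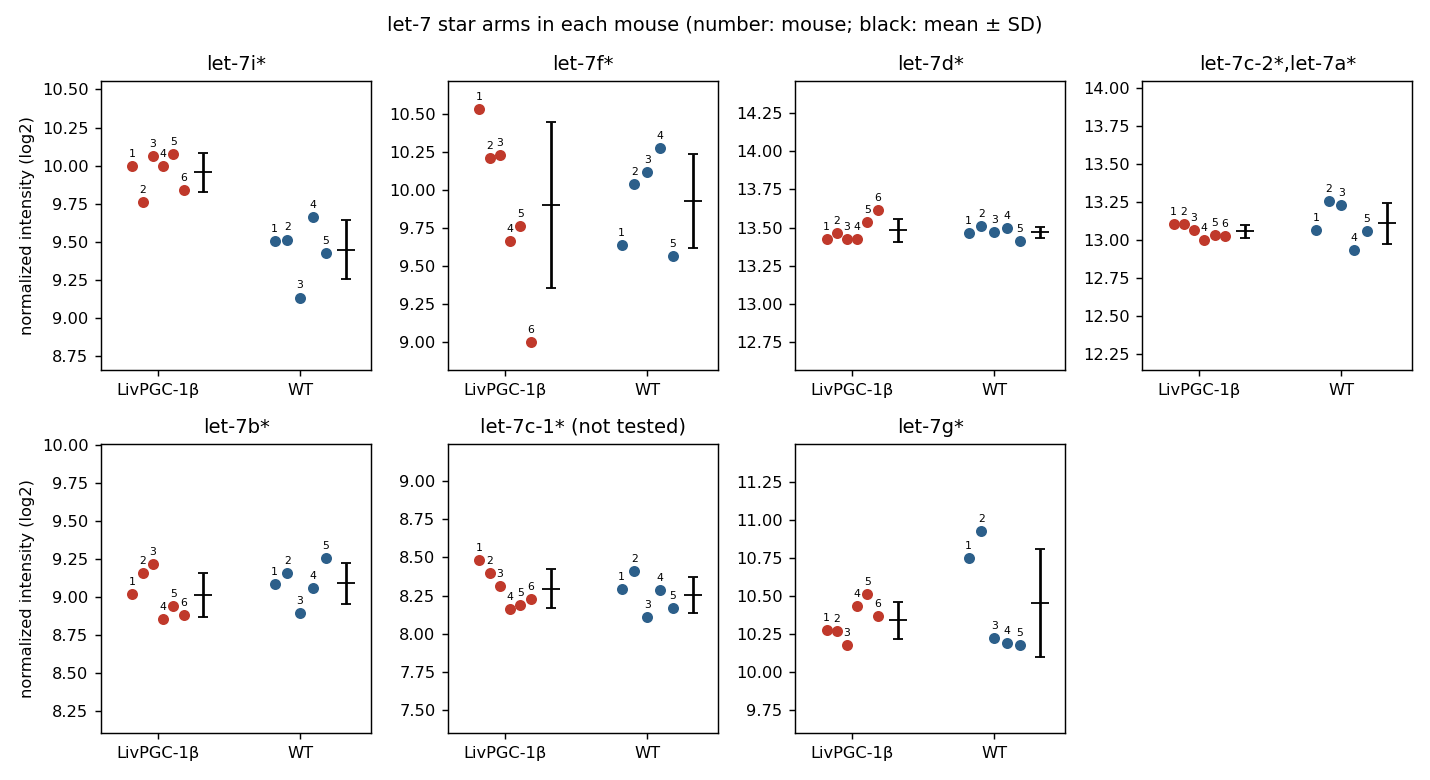
Normalized intensity (log2) of the 7 let-7 star arms in each mouse, LivPGC-1β in red and WT in blue, numbered by mouse, with black bars for mean ± SD; every panel spans the same log2 distance. For let-7i* the 6 LivPGC-1β mice sit at 9.76 or above and the 5 WT mice at 9.66 or below, while the groups overlap in the other panels.

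The size of the let-7i* difference depended on how arrays were put on a common scale. As deposited, before normalization, its intensities were 1122, 657, 1013, 920, 942 and 801 in LivPGC-1β mice 1 to 6, and 915, 815, 657, 762 and 680 in WT mice 1 to 5. LivPGC-1β mouse 2, whose array was the dimmest, was then level with the lowest WT mouse, and 4 of the 6 LivPGC-1β mice exceeded all WT mice. On that scale the difference was 0.24 (limma, adjusted p = 0.357), beside a median of −0.14 over all probes tested. The median deposited intensity of an array was 619 to 871 in LivPGC-1β mice and 743 to 1036 in WT mice. With the authors' own normalized intensities 6 of 6 LivPGC-1β mice exceeded all WT mice. The call was lost, with the difference between 0.48 and 0.52, when WT mouse 1 (adjusted p = 0.052) or LivPGC-1β mouse 1 (0.0616), 3 (0.0559) or 5 (0.0506) was left out of the limma fit. Without WT mice 3 and 5, the lowest for let-7i* (left out after their values were seen), it was 0.39 (limma, adjusted p = 0.0708).

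**Figure D2:**
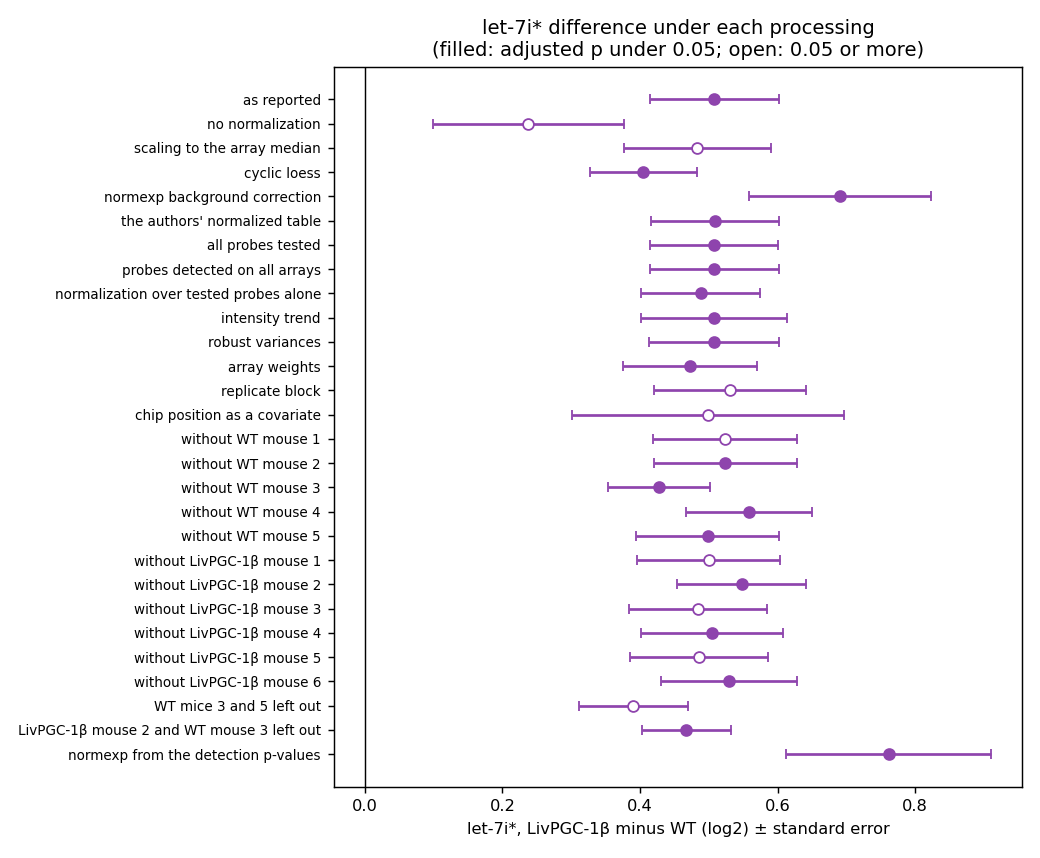
Difference of let-7i*, LivPGC-1β minus WT (log2), with its standard error under each way of processing the arrays, filled where limma's adjusted p was under 0.05 and open otherwise. Every estimate lies above 0, from 0.24 without normalization to 0.76 with normexp background correction taken from the detection p-values, and 9 of the 27 alternatives are open.

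The guide arm of the same hairpin, let-7i, which is among the abundant microRNAs of many differentiated cells, gave no call. It averaged 14.06 ± 0.02 in LivPGC-1β mice (SD, n = 6) and 14.06 ± 0.04 in WT mice (SD, n = 5), with a difference of 0.01 and a 95% interval of −0.05 to 0.07 (limma, adjusted p = 0.949). Within each array, let-7i* minus let-7i was −4.07, −4.34, −3.99, −4.04, −3.98 and −4.22 in LivPGC-1β mice 1 to 6, and −4.57, −4.54, −4.94, −4.43 and −4.56 in WT mice 1 to 5. All 6 LivPGC-1β mice again stood above all 5 WT mice. The level of this quantity depends on the pair of probes and has no reading of its own, whereas a factor common to an array leaves it unmoved. The group means, −4.11 ± 0.14 in LivPGC-1β mice and −4.61 ± 0.19 in WT mice, differed by 0.50 (two-sided exact permutation p = 0.00433). Without normalization the same quantity differed by 0.31 (two-sided exact permutation p = 0.0411). Since the guide varied little between arrays after normalization, the normalized values largely restate the separation of let-7i* itself. As deposited, the guide ran from 15530 to 18538 in LivPGC-1β mice and from 16824 to 18052 in WT mice. Star minus guide compares probe signals without background subtraction. An unequal change of the 2 signals therefore does not by itself show an unequal change of the 2 RNAs.

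**Figure D3:**
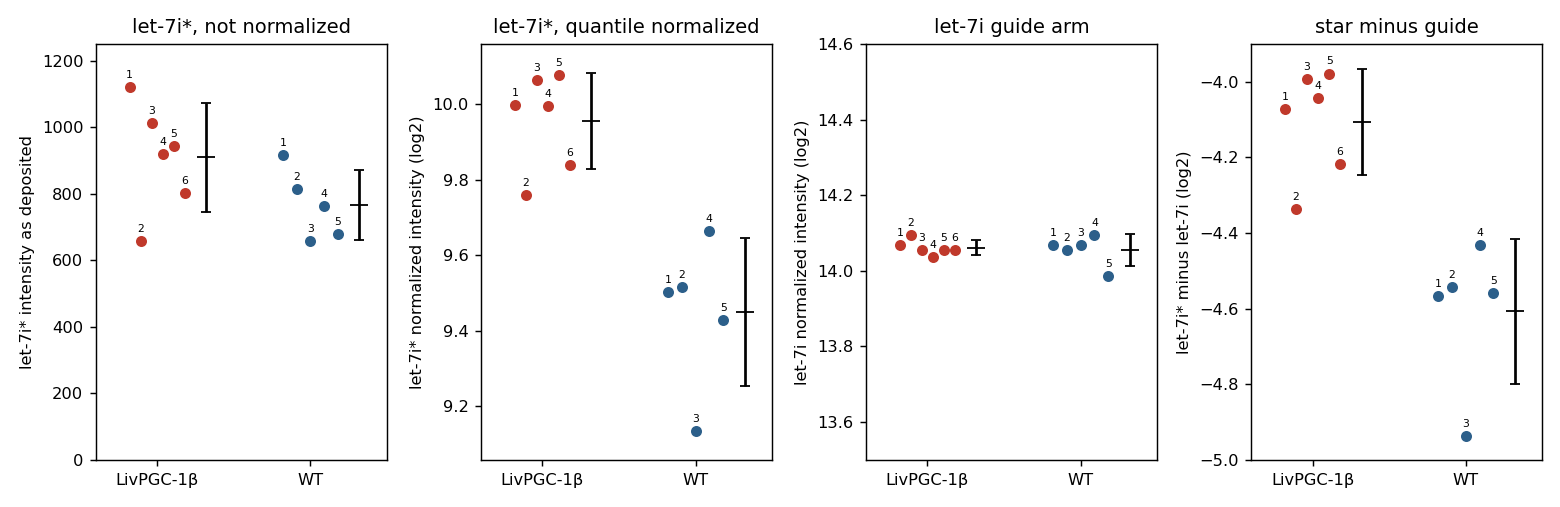
The let-7i hairpin in each mouse, as the deposited let-7i* intensity, the normalized let-7i* and let-7i intensities (log2) and their difference within each array, LivPGC-1β in red and WT in blue, with black bars for mean ± SD. The genotypes overlap in the deposited intensity (657 to 1122 against 657 to 915) and for the guide arm, and separate for normalized let-7i* and for star minus guide.

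The 3 members with the seed UAUACAA gave no call. The star arm let-7f* was the member that varied most between mice of 1 genotype (pooled SD 0.46). It stood at 10.528, 10.209, 10.228, 9.664, 9.760 and 9.001 in LivPGC-1β mice 1 to 6, and at 9.638, 10.035, 10.119, 10.275 and 9.567 in WT mice 1 to 5. LivPGC-1β mice held both the highest and the lowest value, a 2.88-fold range, against a 1.63-fold range in WT mice. Its means of 9.90 ± 0.54 (SD, n = 6) in LivPGC-1β mice and 9.93 ± 0.31 (SD, n = 5) in WT mice differed by −0.029, with a 95% interval of −0.60 to 0.55 (limma, adjusted p = 0.983). That interval holds a change of the size seen for let-7i*, so a difference of that size is not excluded for let-7f* with this number of arrays.

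The shared probe let-7c-2*,let-7a*, the star arm of hairpins in both clusters, stood at 13.10, 13.10, 13.07, 13.00, 13.03 and 13.02 in LivPGC-1β mice 1 to 6, and at 13.07, 13.25, 13.23, 12.93 and 13.06 in WT mice 1 to 5. All LivPGC-1β values fell inside the WT range, which was set by WT mice 2 and 3 on the high side and WT mouse 4 on the low side. The difference was −0.052, with a 95% interval of −0.18 to 0.07 (limma, adjusted p = 0.704). For let-7b*, the neighbour of let-7c-2 on chromosome 15, the values were 9.02, 9.16, 9.22, 8.86, 8.94 and 8.89 in LivPGC-1β mice 1 to 6, and 9.09, 9.16, 8.89, 9.06 and 9.26 in WT mice 1 to 5. The groups overlapped, LivPGC-1β mice 4 and 6 lying below every WT mouse and none above. The difference was −0.078, with a 95% interval of −0.26 to 0.11 (limma, adjusted p = 0.699).

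The star arm let-7d*, from the last hairpin of the chromosome 13 cluster, was the most even member in WT mice. It stood at 13.43, 13.46, 13.43, 13.43, 13.53 and 13.61 in LivPGC-1β mice 1 to 6, and at 13.46, 13.51, 13.47, 13.49 and 13.41 in WT mice 1 to 5. LivPGC-1β mice 5 and 6 lay above every WT mouse and the others within the WT range. The difference was 0.012, with a 95% interval of −0.08 to 0.10 (limma, adjusted p = 0.932).

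The star arm let-7g* stood at 10.28, 10.27, 10.17, 10.43, 10.51 and 10.37 in LivPGC-1β mice 1 to 6, and at 10.75, 10.92, 10.22, 10.19 and 10.17 in WT mice 1 to 5. WT mice 1 and 2 were higher than all other mice of either genotype, while the remaining WT mice lay at the low end of the LivPGC-1β range. The means of 10.34 ± 0.12 (SD, n = 6) in LivPGC-1β mice and 10.45 ± 0.36 (SD, n = 5) in WT mice differed by −0.11, with a 95% interval of −0.44 to 0.21 (limma, adjusted p = 0.747). Without WT mouse 1, which also stood apart in the muscle list, the difference was −0.039, and without WT mouse 2 it was 0.0018. The intervals of let-7d*, let-7c-2*,let-7a*, let-7b* and let-7g* all ended below the 0.51 of let-7i*, and whether any of them differed from let-7i* in response was not tested.

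The remaining member, let-7c-1*, was detected on 1 of 6 LivPGC-1β arrays, that of mouse 1, and on 0 of 5 WT arrays, and was not tested. Its deposited intensity was 265 to 386 in LivPGC-1β mice and 282 to 373 in WT mice, beside a lowest detected intensity per array of 328 to 365 in LivPGC-1β mice and 349 to 434 in WT mice, and no fold is given for it. The let-7c guide, which the let-7c-1 hairpin also encodes, was detected on all 11 arrays.

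None of the 9 guide arms of the family passed the limma test in either direction, adjusted or at an unadjusted p under 0.05. Their differences ran from −0.05 for let-7f to 0.06 for miR-98, a family member encoded on the X chromosome, with a median of −0.00. All but let-7e and miR-98 averaged 14.06 to 14.42, near the upper end of the scale. Above them, miR-126-5p and miR-451, at 14.92 and 15.00, had an SD of 0 in both groups after normalization. Quantile normalization gives each rank the same value on every array, so that SD follows from an unchanged rank. The normalized spread of the guides likewise reflects changes of rank alone. How large a change of the guides could show at these levels was not tested. The guide let-7f averaged 14.36 ± 0.04 in LivPGC-1β mice and 14.42 ± 0.03 in WT mice (SD, n = 6 and 5; limma, adjusted p = 0.461), and miR-98 averaged 12.80 ± 0.05 in LivPGC-1β mice and 12.73 ± 0.04 in WT mice (limma, adjusted p = 0.443). Star minus guide within arrays differed between genotypes by 0.02 for let-7f*, −0.02 for let-7d*, −0.05 for let-7c-2*,let-7a* against let-7a, −0.04 against let-7c, −0.10 for let-7b* and −0.09 for let-7g*. In each of these the genotypes overlapped.

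**Figure D4:**
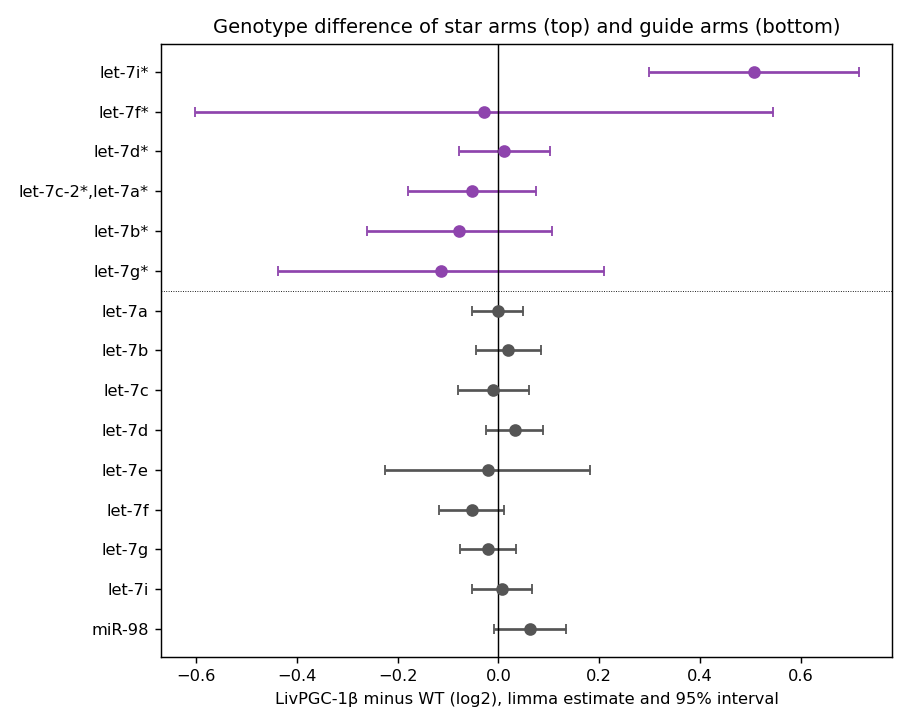
Difference LivPGC-1β minus WT (log2) with its 95% interval from limma for the 6 tested star arms of let-7 (purple, top) and the 9 guide arms (grey, bottom). The interval of let-7i* (0.30 to 0.72) lies wholly above 0 and those of the other 14 microRNAs include 0.

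The microRNAs that lie in clusters with the hairpins of let-7c-1, let-7a-2 and let-7e, the miR-99, miR-100 and miR-125 arms, had 9 probes, of which 7 were tested and none passed. The largest of their differences was that of miR-99b, encoded beside let-7e and miR-125a, at 0.15 (limma, unadjusted p = 0.033, adjusted p = 0.339), and 5 of the 6 LivPGC-1β values exceeded all WT values. Outside the let-7 family the chip carried 107 star arms, 78 of them tested, of which miR-30c-1* and miR-30e* were higher at the adjusted threshold and none was lower. The median difference of these 78 was −0.02. The star arm miR-30c-1* differed by 0.48 (limma, adjusted p = 0.0167) and miR-30e* by 0.29 (limma, adjusted p = 0.00747).

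The probes whose levels ran most like each member were sought by Pearson's r over the 11 arrays, among the 492 other tested probes. These r are descriptions over arrays that share a chip and a normalization. The probes most like let-7i* were miR-143 (r = 0.91), miR-345-3p (r = 0.90) and miR-345-5p (r = 0.88), the last called higher in LivPGC-1β mice by 0.70 (limma, adjusted p = 0.00439). On deviations from the genotype means, r with let-7i* was 0.76 for miR-143, 0.68 for miR-345-3p and 0.42 for miR-345-5p, and without WT mice 3 and 5 the r over both genotypes was between 0.78 and 0.82 for the 3 probes. The muscle and stromal microRNA miR-143 averaged 14.44 ± 0.03 in LivPGC-1β mice and 14.34 ± 0.06 in WT mice, with the groups apart and a difference of 0.10 (limma, adjusted p = 0.202). It was on the list for stellate cells and fibroblasts, of whose 4 microRNAs 4 were tested and 0 passed, with intensities summing to 59542 to 75757 in LivPGC-1β mice and 63993 to 72444 in WT mice. The median difference of the list was 0.08. Of its members, miR-145 differed by 0.05 (limma, adjusted p = 0.505) and miR-214 by 0.21 (limma, adjusted p = 0.317), of the same sign as miR-143. The list's miR-199a-3p, measured by the probe miR-199a-3p,miR-199b that it shares with miR-199b, differed by −0.07 (limma, adjusted p = 0.525), of the opposite sign. An older probe, miR-199a-3p:9.1, left out of the list, differed by 0.09 (limma, adjusted p = 0.430). The part of such cells in the let-7i* difference was not tested.

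The mice in which let-7f* was high or low were largely those in which the guide let-7e, encoded on chromosome 17, was high or low (r = 0.93 over the 11 arrays). This r was 0.93 on deviations from the genotype means and 0.90 without LivPGC-1β mice 1 and 6, the farthest from the median of let-7f*. Next came miR-190 (r = 0.92) and miR-683 (r = 0.90), neither of them a let-7 microRNA. For let-7g* the closest were miR-10b* (r = 0.95), miR-761 (0.94) and miR-693-3p (0.94), and without WT mice 1 and 2 these r were between 0.73 and 0.76. For let-7d* they were miR-151-3p (r = 0.90), miR-107 (0.85) and miR-148b (0.82), and without LivPGC-1β mice 5 and 6 these r were 0.73, 0.56 and 0.75 in the same order. The shared probe let-7c-2*,let-7a* had r = 0.76 with miR-29b*, and 0.71 with both miR-883b-5p and miR-132. Without WT mice 2 and 3 these r were 0.03 for miR-29b* and 0.20 for miR-883b-5p, which so rested on those arrays, and 0.70 for miR-132. No probe reached a higher r with let-7b* than miR-669e (r = 0.60), with miR-669d (0.59) and miR-1198 (0.58) next. Without LivPGC-1β mouse 4 and WT mouse 5 these r were 0.84 for miR-669e, 0.38 for miR-669d and 0.25 for miR-1198.

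The star arms did not run together from mouse to mouse. Over the 15 pairs of the 6 tested members r ranged from −0.53 to 0.37 with a median of −0.04, and on deviations from the genotype means the median was 0.05, with 8 of 15 pairs above 0.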

How the data were processed

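Liver RNA was measured on 11 arrays of an Illumina Universal MicroRNA BeadChip. The authors exported with Genome Studio the mean bead intensity of each probe, neither normalized nor background subtracted. A detection p-value for each probe and array, deposited beside it, was computed against negative controls. The quantile-normalized intensity values that the authors also deposited served as an alternative. The version of Genome Studio and the test used on the arrays are not given in the sources used here.

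Intensities were quantile normalized over 655 probes, set on the log2 scale and fitted with limma 3.58.1 in R 4.3.3. Probes detected at 0.01 on 5 or more arrays, whatever the genotype, were tested. Exact permutation tests over the 462 divisions of the arrays were two-sided. P-values set each difference against the variation between arrays. With a single array per mouse, variation between mice and between arrays was not separated, and the number of arrays limits the precision. The working of the fit was checked on simulated data with independent noise for each probe and array. That check does not bear on the calls reported here. Figures were drawn with matplotlib 3.10.9 in Python 3.11.15.

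All 7 let-7 star arms, the let-7 guide arms, their cluster partners and, for each tested star arm, the 3 probes with the highest r were named. Members, lists and alternatives were chosen with earlier results of these data known. Other microRNAs named were members of the marker lists or called star arms. Alternatives covered normalization, background, detection filters, variance models, a replicate block, chip position and each mouse left out in turn. Leaving out WT mice 3 and 5, leaving out LivPGC-1β mouse 2 with WT mouse 3, and normexp from the detection p-values were chosen after seeing the data. Mice of the same number deviated together by r = −0.13 to 0.07, which gave no sign of pairing by number but cannot exclude it.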

Additional observations from a re-analysis of the deposited data

How the results depend on the processing

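The let-7i* difference stayed positive under all 27 alternatives (0.24 to 0.76; limma adjusted p 0.0147 to 0.599) and under 18 kept its call. It lost it, and the count of star arms called higher fell to 0, without normalization (0.24), with scaling to the array median (0.48, adjusted p = 0.0569), with the replicate block (0.53, adjusted p = 0.178), with chip position as a covariate (0.50, adjusted p = 0.599), without WT mice 3 and 5 (0.39), and without 4 of the 11 mice taken singly, over which let-7i* ran from 0.43 to 0.56 and the count from 0 to 1. The median over all probes was −0.14 without normalization and 0.11 with median scaling. Median scaling cancels in star minus guide, so for that quantity it repeats the result without normalization. Star minus guide of let-7i ran from 0.31 to 0.75 over 21 alternatives and lost its call only with the replicate block (0.52, two-sided exact permutation p = 0.0625, the smallest that 5 pairs allow). The replicate block matched mice by number, so LivPGC-1β mouse 6, with no WT counterpart, was left out of it. No mouse correlated best with the same number in the other group. Probes called higher and lower, 8 and 2, were 0 and 0 without normalization and with chip position, 4 and 0 with median scaling, 1 and 0 with the replicate block, 3 and 2 without WT mice 3 and 5, 5 and 1 without LivPGC-1β mouse 2 and WT mouse 3, and 3 to 11 higher and 1 to 3 lower with single mice left out. The lower count was 1 with cyclic loess, with normexp background correction, with all probes tested, with robust variances and with normexp from the detection p-values. Members never called changed sign. Chip position runs alongside genotype, so a fit with it as a covariate cannot separate the 2. The standard error of let-7i* rose there from 0.094 to 0.198. With chip position, let-7b* was 0.042, let-7c-2*,let-7a* 0.083, let-7d* −0.081, let-7f* 0.91 and let-7g* 0.12. With median scaling let-7c-2*,let-7a* was 0.088. For let-7d* the difference was −0.048 without normalization, −0.0021 with array weights, −0.015 with the replicate block and −0.0097 without WT mice 3 and 5. For let-7f* it was 0.10 with array weights and 0.15 with the replicate block. With single mice left out, let-7d* ran from −0.016 to 0.025, let-7f* from −0.16 to 0.15 and let-7g* from −0.19 to 0.0018. The cause of these changes was not tested.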
